A study of Vitis vinifera with 2 samples.

Results

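The unmethylated windows described here are stretches of 1 kb in which almost no cytosine was read as methylated in any of the 3 sequence contexts, CG, CHG and CHH (H is any base except G). They were chosen by the pooled methylation level of both libraries, that is, the methylated reads of 2X plus 4X over all reads of both. A window was eligible when it held at least 8 CG, 8 CHG and 40 CHH cytosines listed in both files and had a mean depth under 60 reads in each. It was taken as unmethylated when the CG level was under 5%, the CHG level under 5% and the CHH level under 2%. Of 394599 windows with a shared cytosine on the 19 chromosomes, 265344 were eligible, and 41274 of these (15.6%) were unmethylated. Levels in these windows are given as a description with no test, because the levels chose them, and a test is given only for the difference between the libraries in single windows.

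The study compared the diploid grapevine 'Jingyanjing' (2X) with an autotetraploid (4X) that had been obtained by treating tissue-cultured plantlets of it with colchicine. Vines of both lines received the same standard care. DNA came from terminal buds collected before the buds of 4X dropped, and the buds of 3 vines per line were pooled into 1 library. The spread between vines was therefore not measured, and each comparison below is of 2 libraries. Per the file contents, the mean depth at a listed cytosine was 12.9 reads in 2X and 11.9 reads in 4X.

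In plants, CG methylation is copied by the methyltransferase MET1, CHG methylation by chromomethylases that read histone marks, and CHH methylation is set anew by RNA-directed methylation or by chromomethylase. Transposons usually carry methylation in all contexts, the bodies of many expressed genes carry it in CG alone, and promoters, first exons and many genes carry none. Bisulfite sequencing reads an unmethylated cytosine as thymine. A cytosine that escaped conversion is read as methylated, so the low level that remains in unmethylated DNA holds true methylation, incomplete conversion and sequencing error together. It is called the residual level below. The conversion rate is not given in the sources used here. Gene positions and base sequences in the build of the files were not used here, so windows are given by position alone.

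The residual level differed between contexts in both libraries. In CG it was 0.779% in 2X (83802 of 10754531 reads, 95% Wilson interval 0.774 to 0.784) and 0.733% in 4X (72964 of 9948273 reads, 0.728 to 0.739). In CHG it was 0.387% in 2X (0.384 to 0.390) and 0.329% in 4X (0.326 to 0.332). In CHH it was 0.270% in 2X (0.269 to 0.271) and 0.230% in 4X (0.229 to 0.231). CG was thus the highest context and CHH the lowest, although the rule allowed CG and CHG the same limit. Intervals cover counting error only, since several reads can stem from 1 molecule, and no molecular identifiers are named in the sources used here.

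Most windows lay far below the limits. No methylated CG read was found in 20698 of the windows in 2X (50.1%) and in 22718 in 4X (55.0%). At the median of 184 and 179 CG reads in those windows, a count of 0 still allows a level of up to 1.63% in 2X and 1.68% in 4X. Over the libraries together, 13945 windows (33.8%) had no methylated CG read, 12060 (29.2%) none in CHG and 1914 (4.64%) none in CHH. Only 709 windows (1.72%) had no methylated read in any context. These counts depend on the number of reads and do not rank the contexts. In 2X the windows held 10754531 CG, 16662147 CHG and 79433921 CHH reads. The 90th percentile of the CG level over windows was 2.65% in 2X and 2.56% in 4X. That of the CHG level was 1.12% and 0.994%, and that of the CHH level 0.559% and 0.466%.

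The CG limit decided membership far more than the other limits. Of 114017 eligible windows below the CHG and CHH limits, 41274 were also below the CG limit. Of 42130 windows below the CG and CHH limits, nearly all were also below the CHG limit, and the same held for the 41715 windows below the CG and CHG limits and the CHH limit.

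The windows low in CHG and CHH formed a continuous range in CG with most windows at its ends. There were 31500 windows with a CG level under 1%, 4332 between 1 and 2%, and 5442 between 2 and 5%. Per percentage point, this is 1814 windows between 2 and 5%, 1116 between 5 and 10% and 462 between 20 and 50%. The number rose again to 1340 per point between 80 and 100%. The limit of 5% thus did not fall at a gap in the levels. Just inside it, the window chr6:7118001-7119000 had a pooled CG level of 4.99%, with 5.79% in 2X and 4.34% in 4X. Just outside, chr1:4769001-4770000 had 5%, with 3.79% in 2X and 6.42% in 4X.

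Windows next to the other limits came out as follows. The last window inside the CHG limit, chr6:6678001-6679000, had a CHG level of 7.28% in 2X and 2.42% in 4X. The first window outside it, chr14:16717001-16718000, had 7.33% and 2.67%. For CHH, the last window inside, chr6:12771001-12772000, had 3.36% in 2X and 0% in 4X. The first outside, chr2:2412001-2413000, had a CHH level of 0.431% in 2X and 2.87% in 4X.

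Contiguous unmethylated windows were joined into runs, which a window that was not unmethylated, or not eligible, ended. The 41274 windows formed 24673 runs with a mean length of 1.67 kb. Runs of 1 window made up 63.0% of all runs (15533) and held 37.6% of the windows. There were 5411 runs of 2 kb, 2830 runs of 3 to 4 kb and 851 runs of 5 to 9 kb. Only 48 runs reached 10 kb or more, and they held 1.37% of the windows. These long runs lay on 9 chromosomes, and 17 of them on chromosome 18. Windows in the long runs had median depths of 11.3 reads in 2X and 10.7 in 4X, near the medians of all unmethylated windows (10.6 and 9.93 reads). Run length depended on coverage: with only cytosines of at least 10 reads, 14817 windows in 12197 runs were left, and the longest run was 6 kb.

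**Figure D1:**
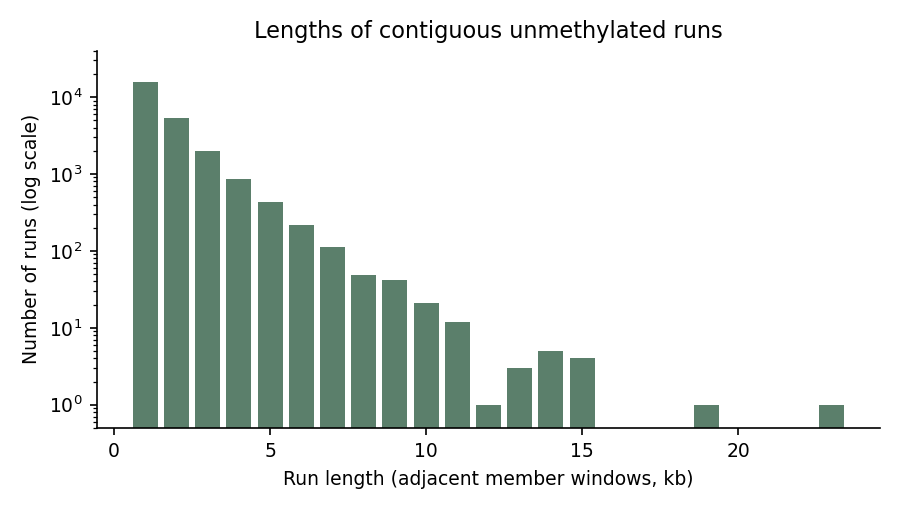
Number of runs (log scale) against run length in kb, over both libraries pooled. Bars fall from 15533 runs of 1 kb to 21 runs of 10 kb, and single runs stand at 19 and 23 kb.

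The longest run spanned 23 kb, from chr4:17427001-17450000, and was read as almost free of methylation in each library by itself. Over its 511 CG cytosines, 15 of 5918 reads were methylated in 2X (0.253%) and 8 of 5729 in 4X (0.140%). Over its 856 CHG cytosines the counts were 19 of 9651 reads in 2X (0.197%) and 15 of 9521 in 4X (0.158%). Over its 4297 CHH cytosines they were 110 of 47066 reads (0.234%) and 71 of 46217 (0.154%). The window on its right had a CG level of 39.0%, with 0.782% in CHG and 0.456% in CHH. The window on its left was not eligible and had a CG level of 11.5%.

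The next run, chr8:16086001-16105000, was 19 kb long, with 26 methylated of 5566 CG reads in 2X (0.467%) and 26 of 5485 in 4X (0.474%). No shared cytosine was listed in the window on its left, so the run may extend further. Its right neighbour had 48.5% in CG and 0.128% in CHG. The following runs were 15 kb long, a length that 4 runs shared. Of these, the first 3 in chromosome order are named to complete the 5 longest.

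The run chr2:621001-636000 had CG levels of 0.497% in 2X (22 of 4423 reads) and 0.741% in 4X (29 of 3911 reads). Its right neighbour, which was not eligible, had 36% in CG and 49.4% in CHG. The run chr8:17792001-17807000 had CG levels of 0.276% in 2X (11 of 3980 reads) and 0.537% in 4X (19 of 3540 reads). It bordered on its left a window methylated in CG (81.8%) and CHG (55.2%). The run chr18:4277001-4292000 had CG levels of 0.672% in 2X (27 of 4019 reads) and 0.331% in 4X (13 of 3925 reads), and its right neighbour had 48.6% in CG and 32.01% in CHG. Across the 5 runs named, CG levels were therefore at most 0.741% in either library, and the library with the higher CG level was not the same one throughout.

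Gaps separated the runs by a median of 7 kb. Of 24654 gaps, 3565 (14.5%) were a single window, and 1618 of those single windows were not eligible. Where all windows that were not eligible were bridged, in gaps of any length and with those that had no shared cytosine, 21700 runs remained, and the longest became 48 kb. That length was reached by 2 stretches. The stretch chr8:19562001-19610000 held 17 unmethylated windows and 6 windows with no shared cytosine. The stretch chr11:12458001-12506000 held only 8 unmethylated windows and 19 windows with no shared cytosine. The gap of greatest length, chr2:10894001-12235000, held no unmethylated window over 1341 kb. Of its 949 eligible windows, 97.9% were methylated in CG and CHG, taken here as a CG level of at least 50% and a CHG level of at least 40%.

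The level at the edges of runs was measured in steps of 100 bp at 7458 edges of runs of at least 3 kb. A rise at the edge is built into the rule, since an eligible neighbour ends a run only by exceeding a limit, so the profile is a description of its width and height. In the last 100 bp inside, the CG level was 1.67% in 2X and 1.61% in 4X. In the first 100 bp outside, it was 13.4% in both. It reached 43.7% in 2X and 43.1% in 4X at 550 bp outside, and stayed between 35.3 and 43.8% further out in both libraries. Where the next window was eligible, a border can lie anywhere in it, so averaging over edges spreads the step. Of the 49346 edges of all runs, 35.8% faced a window that was not eligible and 2.11% one with no shared cytosine. There a run can end without a border, and the profile includes such edges.

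In the other contexts the step was smaller. CHG rose from 0.612% to 2.27% in 2X across the edge and from 0.562% to 2.29% in 4X. At 2950 bp outside it was 11.6% in 2X and 11.3% in 4X, below the CHG level of all eligible windows (28.4% and 27.8%). These sets are unlike, since the profile covers only the surroundings of runs of at least 3 kb. As a mean over eligible windows, the CHG level 3 kb from a run was 18.3% in 2X and 18.35% in 4X. Over all eligible windows that mean was 33.8% in both libraries. CHH rose from 0.320% to 0.593% in 2X and from 0.294% to 0.587% in 4X, and stood at 1.66% and 1.602% at 2950 bp.

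**Figure D2:**
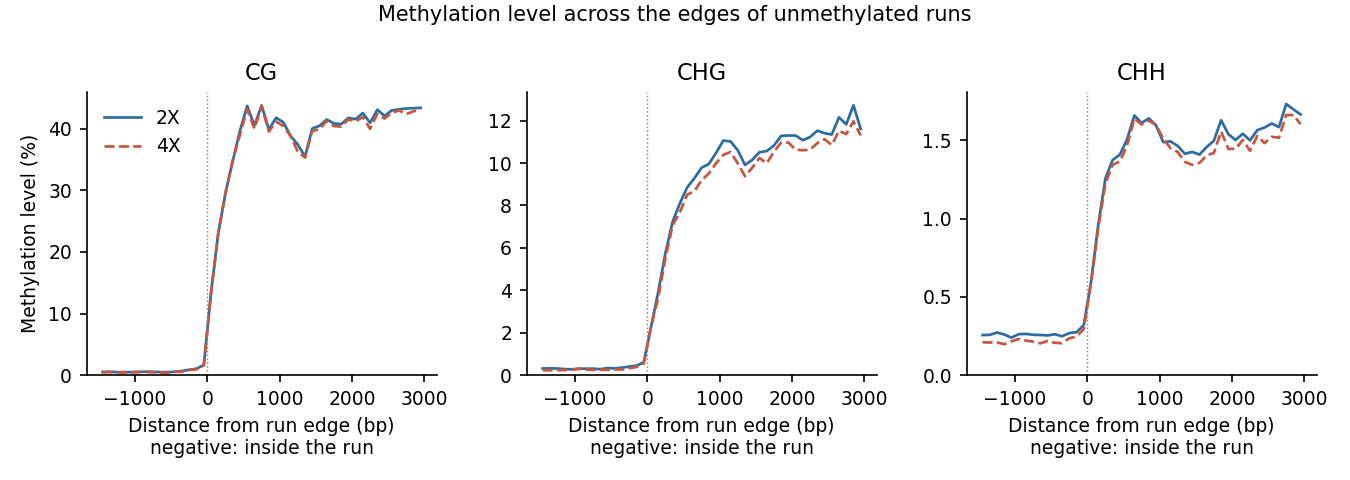
Methylation level in 100 bp steps against the distance from the edge of runs of at least 3 kb, for CG, CHG and CHH (each with its own axis), with 2X as a solid and 4X as a dashed line. The libraries nearly coincide at the step, where CG climbs from 1.67% in 2X to 43.7% at 550 bp, and inside the runs 4X lies below 2X.

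Windows next to a run were seldom methylated in CG and CHG. Of the 49346 edges, 30653 (62.1%) faced an eligible window. Of these, 10.4% faced a window methylated in CG and CHG, although such windows made up 51.6% of eligible windows that were not unmethylated. Windows methylated in CG alone (a CG level of at least 50%, with CHG under 5% and CHH under 2%) were faced by 16.9%, against 20.5% of those eligible windows. The remaining 72.8% faced windows of intermediate or mixed levels, and windows that straddle a border fall in that class by construction. The mean CG level of eligible windows was 40.5% in 2X and 40.6% in 4X at 1 kb from a run. At 10 kb it was 51.1% and 51.3%, still below the mean over all eligible windows (60.6% and 60.8%). At 10 kb, 23.2% of the eligible windows were themselves unmethylated, against 15.6% overall.

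The residual level fell from the ends of runs to their inside. In runs of at least 5 kb, the end windows had a CG level of 0.669% in 2X (0.646 to 0.693) and 0.631% in 4X (0.607 to 0.655). The inner windows, 2 or more windows from an end, had 0.447% in 2X (0.430 to 0.466) and 0.405% in 4X (0.387 to 0.423). Runs of 1 window had the highest CG level, with 0.922% in 2X (0.913 to 0.932) and 0.887% in 4X (0.877 to 0.896). CHH changed less, from 0.284% in runs of 1 window to 0.238% in inner windows of 2X and from 0.239% to 0.208% in 4X. These intervals did not overlap, but they cover counting error alone. The limits allow an end window to hold some of the methylated sequence beyond the edge, and its part in the fall was not tested. In runs of at least 3 kb, CG fell from 1.67% in 2X and 1.61% in 4X in the last 100 bp inside. At 450 bp inside it was 0.577% and 0.550%.

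Unmethylated windows were unevenly spread over the chromosomes. Their share among eligible windows was highest on chromosome 8 (24.9%, 95% Wilson interval 24.2 to 25.7, 3484 windows) and lowest on chromosome 9 (9.29%, 8.84 to 9.77, 1391 windows). Chromosomes 18, 1 and 6 came next to chromosome 8 with 20.6%, 20.3% and 20.2%, and their intervals overlapped each other. Chromosomes 16 and 19 stood just above chromosome 9 with 11.1% and 10.98%, also with overlapping intervals. Across the 19 chromosomes, the share had a Pearson's r of -0.867 (Spearman's rho -0.846) with the share of windows methylated in CG and CHG, which compete for the same eligible windows. With the last listed position, a measure of chromosome length, r was 0.0640 (rho -0.0368). The intervals count each window as an independent draw, although unmethylated windows lay in runs, so they can be too narrow. Chromosomes are not independent replicates, and no p is given.

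**Figure D3:**
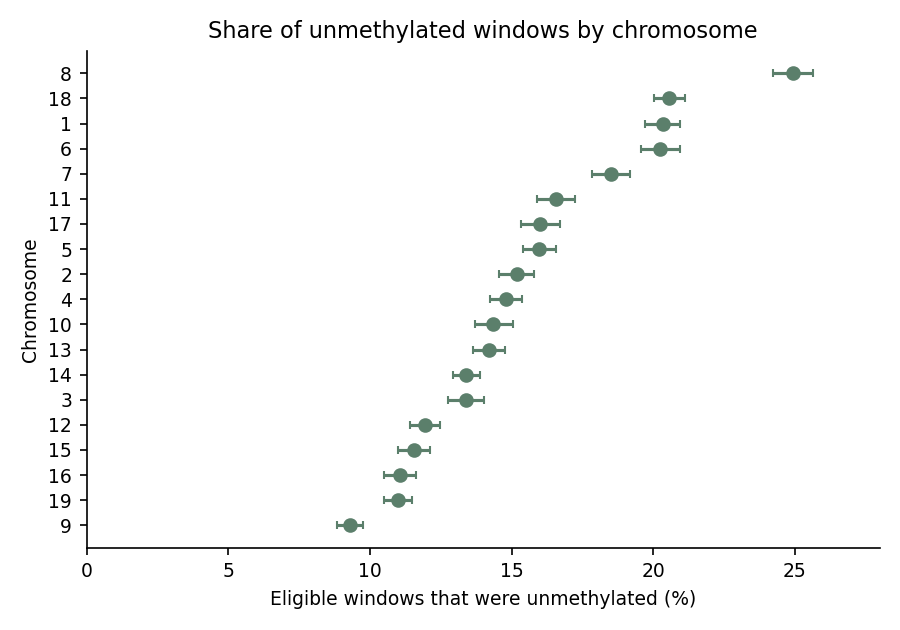
Percentage of eligible windows that were unmethylated on each of the 19 chromosomes, sorted, with 95% Wilson intervals as bars. Chromosome 8 stands apart at 24.9%, and chromosome 9 is lowest at 9.29%.

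Along the chromosomes, unmethylated windows were least frequent in the middle of most. Each chromosome was divided into 5 zones of equal width by the distance from the nearer end to the middle, counted from the last listed position. The share of unmethylated windows was 18.7% in zone 1 at the ends (18.4 to 19.1), 18.8% in zone 2, 17.2% in zone 3, 12.9% in zone 4 and 9.32% in zone 5 at the middle (9.06 to 9.57). The intervals of zones 1 and 2 overlapped, and they too count each window as an independent draw. This course was not particular to them, since windows methylated in CG alone fell from 23.2% in zone 1 to 10.6% in zone 5. Windows methylated in CG and CHG took the opposite course, from 31.2% in zone 1 to 62.6% in zone 5. The share of windows that were eligible moved in parallel, from 70.6% to 64.2%, and its part in the trend was not tested. The share was higher in zone 1 than in zone 5 on 18 of 19 chromosomes. Zone 5 was the lowest zone on 16 chromosomes, but zone 1 was the highest on only 9. The exception was chromosome 8, with 22.7% in zone 1 and 28.2% in zone 5. On chromosome 17 the zones were close, with 17.1% and 15.3%. Centromere positions were not used here, so zone 5 is the middle of the sequence and not a centromere.

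**Figure D4:**
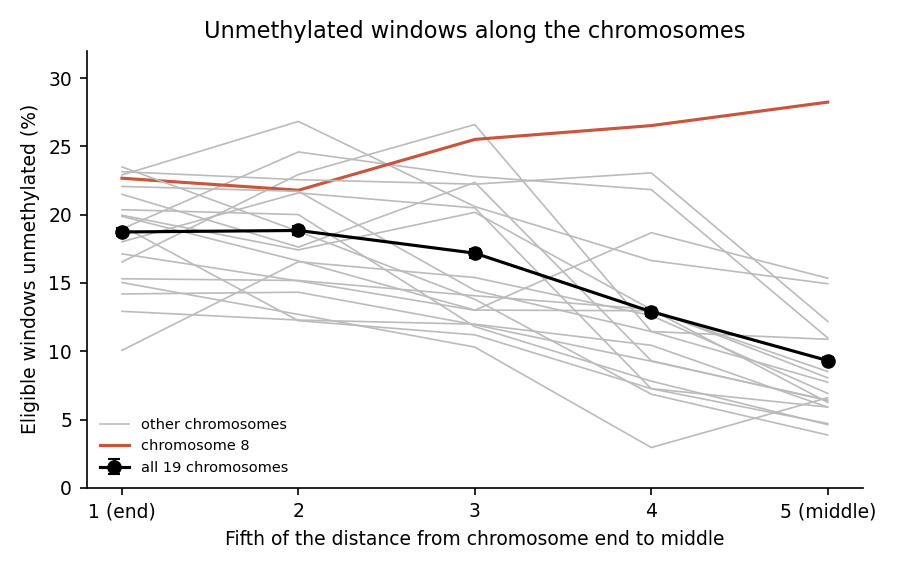
Percentage of eligible windows that were unmethylated in 5 zones from chromosome end to middle, with each chromosome as a thin line, chromosome 8 in red, and all 19 chromosomes together in black with 95% Wilson intervals. The black line falls from 18.7% at the ends to 9.32% at the middle, while chromosome 8 rises to 28.2%.

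On the scale of 1 Mb the range was wider. Among 429 bins with at least 200 eligible windows, the median share was 12.7%, with a 10th percentile of 4.02% and a 90th percentile of 29.8%. The bin chr18:8000001-9000000 was highest, with 318 of 667 eligible windows (47.7%), followed by chr1:3000001-4000000 with 346 of 742 (46.6%). The bins chr2:11000001-12000000 and chr8:6000001-7000000 held 0 unmethylated windows among 683 and 485 eligible ones. In these bins, 97.7% and 96.1% of the eligible windows were methylated in CG and CHG. Chromosome 8 thus held both the highest overall share and a bin without any unmethylated window.

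Unmethylated windows held fewer listed cytosines but a greater proportion of CG. Their median was 232 shared cytosines per window, against 308 in windows methylated in CG alone and 258 in windows methylated in CG and CHG. CG made up 10.1% of the cytosines in unmethylated windows, 4.82% in windows methylated in CG alone and 8.51% in those methylated in CG and CHG. The CG share was higher in unmethylated windows than in the rest of the eligible windows on 19 of 19 chromosomes, although the rule asked only for a minimum number. Depth was lower in unmethylated windows. The median was 10.6 reads in 2X and 9.93 in 4X, against 12.6 and 11.6 in the rest of the eligible windows, and members were shallower on each of the 19 chromosomes in both libraries. Cytosines under 3 reads are not listed, so a low depth also lowers the number of listed cytosines, and how far each difference rests on depth was not tested. Only 53 unmethylated windows had a mean depth of at least 30 reads in either library.

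Very few cytosines inside the windows were methylated as such. The limits on the pooled level bound how many a window can hold, so their rarity is no result about the windows. Of 322675 CG cytosines read 10 or more times by each library, 287615 (89.1%) had no methylated read, and 260 (0.0806%) had a level of at least 50% in both libraries. These lay in 231 windows (0.560% of all). In CHG there were 75 such cytosines of 508186, and in CHH 81 of 2403108. Of the methylated CG reads at cytosines of this depth, 9.44% in 2X and 9.93% in 4X came from CG cytosines with a pooled level of at least 50%.

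Where the CG cytosine on the opposite strand was listed, it was mostly methylated too. For 184 of the 260, the CG cytosine on the opposite strand was also listed, and it had a level of at least 50% in both libraries at 118 (64.1%). It was under 10% in both libraries at 1. For the rest of the 260 the opposite strand was not listed. Cytosines are counted here, so a pair with both among the 260 enters for each of them. Of the 260 cytosines, 161 (61.9%) lay within 100 bp of a window end, a zone that makes up 20% of each window. A level of at least 50% in 2X and under 10% in 4X was found at 52 CG cytosines, and the opposite at 84.

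A part of the residual reads was packed into short stretches. The windows held 382490 stretches of 100 bp. In 2X, 6995 of these (1.83%) had at least 5 CHH cytosines with a methylated read, and they held 33.6% of all methylated CHH reads in the windows. In 4X, 5528 stretches (1.45%) held 33.3%. At 86.0% of the methylated CHH cytosines in the 2X stretches, and at 86.6% in the 4X stretches, there was exactly 1 methylated read. The stretches were chosen by CHH, and the other contexts were then read in them. In the 2X stretches, 2X had a CG level of 4.45%, a CHG level of 3.91% and a CHH level of 3.53%. In the 4X stretches, 4X had a CG level of 4.75%, a CHG level of 4.12% and a CHH level of 3.76%. The CHH values follow from the choice of the stretches.

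Most packed stretches were found in 1 library only. The stretches packed in both numbered 389. They made up 5.56% of those in 2X, where 1.45% of all stretches were packed in 4X, and 7.04% of those in 4X, where 1.83% of all stretches were packed in 2X. In the 2X stretches, 4X had only 1.36% (CG), 0.744% (CHG) and 0.483% (CHH), and in the 4X stretches, 2X had only 1.55%, 0.868% and 0.577% in the same order. Whether these reads came from methylated molecules or from molecules that escaped conversion was not tested.

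Higher residual levels in 1 library carried over to the other for CG more than for CHH. The 4127 windows with the highest CG level in 2X held 51.3% of the methylated CG reads of 2X. In 4X, which took no part in that ranking, they had a CG level of 2.57%, against 0.535% in the other windows. The 4127 windows with the highest CHG level in 2X had a CHG level of 0.981% in 4X, against 0.266%. For CHH the values in 4X were 0.327% and 0.219%. Ranking in 4X and reading in 2X gave a CG level of 2.65% against 0.577%, a CHG level of 1.08% against 0.321% and a CHH level of 0.381% against 0.258%. All of these windows had also passed the pooled limits, which bounds both libraries. Over the 41274 windows, the CG levels of the libraries had a Pearson's r of 0.418, the CHG levels 0.348 and the CHH levels 0.0697. The windows share depth and length, and such weak values in sparse counts are a description.

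The comparison of 4X with 2X gave a lower residual level in 4X. The difference of 4X minus 2X was -0.0458 percentage points in CG (-0.0533 to -0.0383), -0.0582 in CHG (-0.0624 to -0.0541) and -0.0403 in CHH (-0.0419 to -0.0387), with 95% intervals from counting error. In CG, 17 of 19 chromosomes had the lower value in 4X, and in CHG and CHH all 19 did. In CHH, the chromosomes ranged from 0.253 to 0.309% in 2X and from 0.216 to 0.245% in 4X, without overlap. As ratios of 4X to 2X, CG stood at 0.941, CHG at 0.850 and CHH at 0.851. Windows methylated in CG alone had a similar CHG ratio of 0.856 (0.862% in 2X and 0.738% in 4X) at CHG levels that were likewise low, while their CHH ratio was 0.906 (0.462% and 0.418%). At high levels the ratio was near 1, with 1.001 for CHG in windows methylated in CG and CHG (72.1% and 72.2%). Without the packed stretches the CG ratio was 0.9504, the CHG ratio 0.851 and the CHH ratio 0.848. These values depended on which library chose the windows. With windows chosen by 2X alone, which favours low values in 2X, the direction turned in CG (0.205 percentage points) and CHG (0.0100), and the CHH difference shrank to -0.00328. With windows chosen by 4X alone, which favours low values in 4X, it was -0.284 in CG, -0.118 in CHG and -0.0756 for CHH. With at least 10 reads per cytosine it was -0.0166 in CG. With 1 library per line, a difference in conversion between libraries and a difference between lines cannot be told apart.

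**Figure D5:**
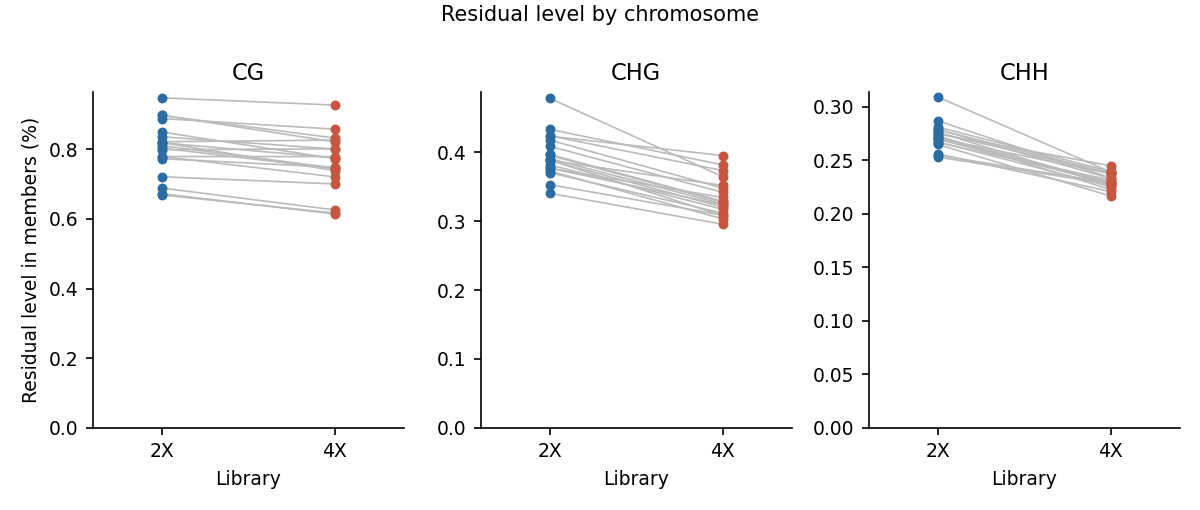
Residual level of the unmethylated windows on each of the 19 chromosomes in 2X (blue) and 4X (red), with a line joining the values of a chromosome, in CG, CHG and CHH (each axis starts at 0). In CHH every chromosome lies lower in 4X, and the ranges (0.253 to 0.309% and 0.216 to 0.245%) do not overlap.

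The pooled rule saw both libraries, so windows were also chosen in 1 library and read in the other. By 2X alone, 41080 windows were unmethylated, and 38243 of them (93.1%) were so by 4X alone as well. By 4X alone there were 41307, of which 92.6% were so by 2X. Windows chosen in 2X had a 4X level of 0.934% for CG cytosines, 0.370% for CHG and 0.244% for CHH. Windows chosen in 4X had a 2X level of 0.960% for CG cytosines, 0.427% for CHG and 0.287% for CHH. The unmethylated state thus carried over to the library that was not used. In the windows chosen in 2X, 2X itself had 0.729% for CG, 0.360% for CHG and 0.247% for CHH. In those chosen in 4X, 4X itself had 0.676%, 0.309% and 0.211%. Each choice favours low values in the library that made it, and the sets of windows differ. The exchange therefore does not tell which library is lower. The 99th percentile of the CG level in the library that was not used was 10.6% in 4X and 10.3% in 2X.

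Strong exceptions were rare. Of the windows chosen in 2X, 57 had a CG level of at least 20% in 4X, and 11 had at least 20% in both CG and CHG. Of those chosen in 4X, 38 had a CG level of at least 20% in 2X and none had both contexts at 20% (0 windows). The most extreme was chr18:12532001-12533000, with a CG level of 1.43% in 2X (140 reads) and 69.4% in 4X (98 reads). Its CHG level was 0.714% in 2X and 64.4% in 4X, and its CHH level 0.107% and 1.05%. In the opposite direction it was chr4:21080001-21081000, with a CG level of 0% in 4X (48 reads) and 34.9% in 2X (63 reads) and little difference in CHG (4.05% in 4X and 5.49% in 2X).

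Window by window, methylated and unmethylated reads of the libraries entered a Fisher exact test (two-sided), adjusted by the Benjamini-Hochberg method over all eligible windows. In CG it called 510 of the 41274 unmethylated windows (1.24%), against 2.12% of all eligible windows. In CHG it called 573 (1.39%), against 3.66%, and in CHH 4395 (10.6%), against 12% of all eligible windows. The limits of the rule bound the difference a member can show, so the lower shares are no result about the members. Of the called windows, 253 of the CG windows, 256 of the CHG windows and 1872 of the CHH windows were higher in 4X, and 257, 317 and 2523 were lower. Among all eligible windows, 3148 were called higher and 2468 lower in CG, 4201 and 5513 in CHG, and 14282 and 17491 for CHH. The median size of a called CG difference was 5.01 percentage points, that of a CHG difference 2.80 and that of a CHH difference 1.12. The test treats reads of 1 molecule as independent calls, and methylated reads in these windows were packed, so its p-values can be too small. With only cytosines of at least 10 reads, it called 181 CG, 116 CHG and 1042 CHH windows among the 14817 unmethylated windows that were then left. The share called among all eligible windows was not computed for that setting.

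The largest called differences rested on few methylated reads. For CG, chr19:3815001-3816000 had 0 of 109 reads in 2X and 7 of 53 in 4X (13.2%, Fisher exact adjusted p = 0.0222). In the opposite direction, chr3:18900001-18901000 had 19 of 158 CG reads in 2X (12.0%) and 0 of 246 in 4X (Fisher exact adjusted p = 6.21e-06). For CHG, chr3:11341001-11342000 had 0 of 219 reads in 2X and 18 of 205 in 4X (8.78%, Fisher exact adjusted p = 0.000229). Lower in 4X was chr1:19586001-19587000, with 9 of 87 CHG reads in 2X (10.3%) and 0 of 162 in 4X (Fisher exact adjusted p = 0.00429).

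For CHH, chr9:5883001-5884000 had 0 of 409 reads in 2X and 12 of 233 in 4X (5.15%, Fisher exact adjusted p = 0.000127). The window chr4:22732001-22733000 had 34 of 758 CHH reads in 2X (4.49%) and 0 of 981 in 4X (Fisher exact adjusted p = 7.63e-11). Its 2X levels were also raised in the other contexts, with 7.76% in CG and 7.41% in CHG, while 4X had 0% in both. In chr9:5883001-5884000, likewise, 4X had 5.88% in CG and 3.33% in CHG, against 0% and 0.893% in 2X. In both windows the library with the higher CHH level thus also had the higher CG and CHG levels. The mean depth of chr9:5883001-5884000 was only 4.35 reads in 4X. Its CG and CHG levels therefore rest on few reads, and no test of them is given.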

How the data were processed

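Bisulfite libraries of pooled terminal buds were compared, 1 from the diploid (2X) and 1 from the autotetraploid (4X), grouped by the ploidy in their labels. The authors discarded low-quality reads and aligned the rest, paired ends of 150 nt, to the Vitis vinifera assembly with Bimark (their spelling). For the aligner version, genome build, duplicate handling and conversion rate, nothing was given in the sources used here. The deposited methylation level is a percent, and in each line of the 2 files it equalled methylated reads divided by total reads. The deposited counts are whole numbers of methylated and of unmethylated reads per cytosine, with no normalization, and every listed cytosine had at least 3 reads. The header names 5 fields for 7 columns, and the values settled the columns of counts.

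Cytosines listed in both files on chromosomes 1 to 19 (87797533) were summed in windows of 1 kb. In 2X 10 and in 4X 6 cytosines without a context were left out. The windows, their limits and the lists were chosen with earlier results of these data known. By rule, the text names the 5 longest runs, the called window with the largest difference per context and direction, the extreme chromosomes, and the windows next to each limit. Fisher p-values were adjusted over 265344 windows per context (threshold 0.05), and the test was tested on simulated data. The simulated reads were independent draws, so the simulation does not cover the packing of methylated reads seen here. Alternatives changed coverage, limits, depth, number of cytosines, window start, the summary of levels and the library that chose the windows. Genes were not analysed here, since the gene table at hand belongs to another assembly. Analyses used Python 3.11.15, numpy 2.4.6, pandas 2.3.3, scipy 1.17.1, numba 0.67.0 and matplotlib 3.10.9.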

Additional observations from a re-analysis of the deposited data

Results flagged for a closer look

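Cytosines listed in 1 file only took no part in the choice of the windows. Their levels were above the limit that a count of 0 allows, which drew attention to them. With this many reads that limit lies far below the residual level (0.000404% for CG in 2X), so passing it is no result. Inside the unmethylated windows, those listed only in 2X had a level of 1.57% in CG (159083 cytosines), 0.707% in CHG and 0.508% in CHH. Those listed only in 4X had 1.36% in CG (157068 cytosines), 0.590% in CHG and 0.413% in CHH. In the eligible windows as a whole, the CG levels at such cytosines were 53.7% in 2X and 50.7% in 4X, so the windows were low in methylation at these cytosines too. Each level was above the residual level at shared cytosines of the same library and context, and the mean depths were 4.67 reads in 2X and 4.59 in 4X for CG. The part of low depth in this was not tested.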

How the results depend on the processing

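No paired analysis was possible because the 2 lines have a single library each. The difference of 4X minus 2X reversed in CG (0.205 percentage points) and CHG (0.0100) when 2X alone chose the windows. That choice by construction favours low values in 2X. The choice by 4X alone likewise favours low values in 4X, so neither is a check of the direction. In the remaining settings the difference kept its direction. These include the one without packed stretches, which was chosen after seeing the data. With at least 10 reads per cytosine, fewer cytosines were left by construction. There were then 14817 windows in 12197 runs, the zone 1 minus zone 5 share was 8.17 percentage points (9.42 in the main setting), and 181 CG, 116 CHG and 1042 CHH windows were called. With 5 reads, 377 CHG windows were called. Limits of 2, 2 and 1% gave a zone difference of 7.73, and 105 CG, 196 CHG and 2670 CHH calls. Limits of 10, 10 and 4% gave 10.97, and 945 CG, 920 CHG and 5572 CHH calls. With 16, 16 and 80 cytosines there were 26388 windows, and the zone difference was 11.7. A minimum difference of 3 points left 253 CHG and 151 CHH calls. The share called among all eligible windows was not computed for these settings. The counts of calls are therefore no result about the members. The longest run was 6 kb with 10 reads, 15 kb with the stricter limits, 14 kb with 16, 16 and 80 cytosines, and 48 kb with bridging. The share of unmethylated windows ranged from 12.9 to 21.0%. The depth of the libraries limits single cytosines to coarse levels.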
